A study of Homo sapiens with 6 samples.

Results

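The enzymes that set, copy, remove and read DNA methylation were examined in HCT116 cells after silencing of the lncRNA AC010789.1. The group comprised 9 genes: the methyltransferases DNMT1, DNMT3A and DNMT3B, the maintenance cofactor UHRF1, the dioxygenases TET1, TET2 and TET3, the DNA glycosylase TDG and the methyl-CpG binding protein MBD2. They were taken by gene symbol, by adding all transcript rows that GENCODE v29 (GRCh38) assigns to each symbol, and made up 9 of 18750 genes with counts.

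HCT116, an established colorectal cancer line, was grown in DMEM with fetal bovine serum and transfected either with an siRNA specific for AC010789.1 (si-AC010789.1, 3 replicates) or with the negative control (siRNA-NC, 3 replicates). The groups differ in the siRNA and share the cell line and the transfection, and 1 siRNA sequence stands for the knockdown. Total RNA was sequenced as paired-end libraries, and the counts summed to between 11277222 and 13443866 per library. The labels do not say whether replicates were separate cultures, while the study describes them as biological repeats, possibly from cells of different generations, with marked differences inside the groups, and the p-values measure the spread between these samples.

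DNMT3A and DNMT3B place methyl groups on unmethylated CpG sites, whereas DNMT1 copies the pattern onto the daughter strand after replication, where UHRF1 recognises hemimethylated DNA and recruits it. TET enzymes oxidise 5-methylcytosine, and TDG excises the oxidised bases formylcytosine and carboxylcytosine so that base excision repair can restore an unmodified cytosine. MBD2 binds methylated CpG sites and belongs to the NuRD repressor complex. Colorectal cancer cells, HCT116 among them, are known for methylated promoters that depend on DNMT1 and DNMT3B, and transcripts of DNMT1 and UHRF1 are known to be raised in S phase.

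At the level of whole genes, none of the 9 members passed an adjusted p of 0.05 in edgeR's quasi-likelihood test, against 135 of 13750 tested genes (0.982%), 39 of them higher (0.284%) and 96 lower (0.698%). The unadjusted p was under 0.05 for 4 members, DNMT3B, UHRF1, TET3 and TDG, against 17.2% of all tested genes. For the same 4 members the 3 si-AC010789.1 libraries did not overlap the 3 siRNA-NC libraries, against 25.1% of tested genes, with DNMT3B and TET3 higher and UHRF1 and TDG lower after silencing. DESeq2, run as an alternative, gave 1 member an adjusted p under 0.05, TDG, against 3.84% of tested genes. No member met the criteria used in the study, an unadjusted p under 0.05 with an absolute log2 fold change over 1, which 0.778% of tested genes met. The median log2 fold change of the members was 0.11, with 6 higher and 3 lower, beside -0.00066 over all tested genes. The most marked difference lay within TDG, whose leading transcript TDG-202 made up from 55.1% to 83.8% of the TDG counts under siRNA-NC and from 3.93% to 8.90% under si-AC010789.1.

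**Figure D1:**
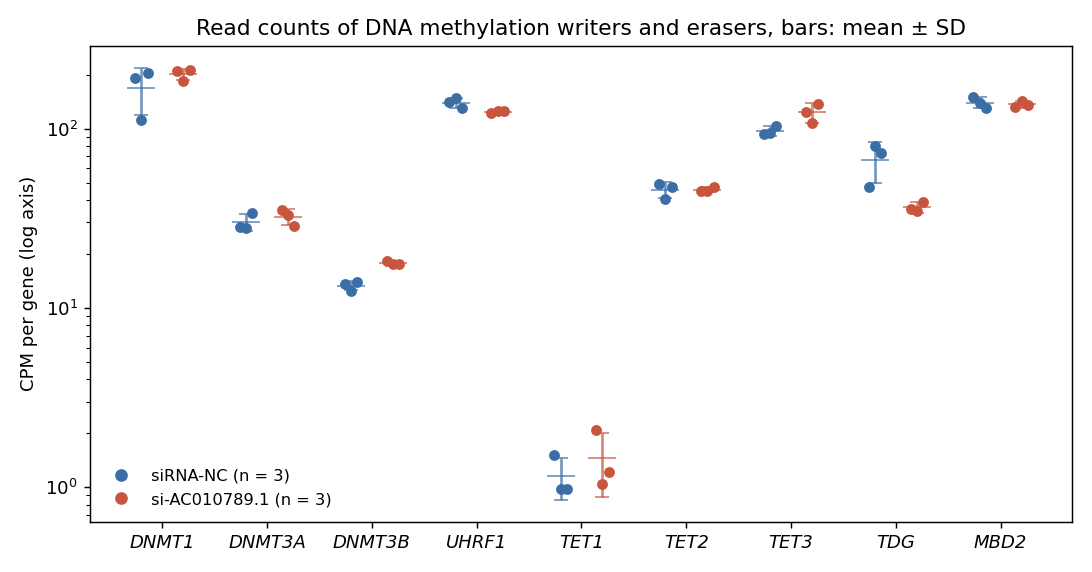
CPM (counts per 1000000 counts of a library, log axis) of each of the 9 genes in the 6 libraries, with points for single libraries and bars for the mean ± SD of 3 replicates. The si-AC010789.1 points lie wholly above the siRNA-NC points for DNMT3B and TET3 and wholly below them for UHRF1 and TDG, and the groups overlap for the other 5 genes.

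Levels are given as CPM, the counts per 1000000 counts of a library on TMM-scaled library sizes, in the order of replicates 1, 2 and 3, and differences as log2 fold changes of si-AC010789.1 over siRNA-NC with their standard error (SE). In RNA from a bulk culture, fewer cells that express a gene and less RNA per cell cannot be told apart. DNMT1 (chr19:10133345-10231286, minus strand) was measured at 192, 112 and 204 CPM under siRNA-NC and at 209, 185 and 212 CPM under si-AC010789.1. The means were 169 ± 49.9 and 202 ± 14.8 (n = 3 per group, SD), the second siRNA-NC library was lower than the other 5, and the groups overlapped. The log2 fold change was 0.25 (SE 0.216, 95% interval -0.26 to 0.77, edgeR adjusted p = 0.606), and it was 0.027 without that library. UHRF1 (chr19:4903080-4962154, plus strand), which brings DNMT1 to replicated DNA, was measured at 141, 148 and 130 CPM under siRNA-NC and at 122, 125 and 125 CPM under si-AC010789.1. All 3 silenced libraries lay below all 3 controls, by a small amount. The log2 fold change was -0.17 (SE 0.0585, 95% interval -0.31 to -0.031), with an unadjusted p of 0.0238 and an adjusted p of 0.218 in edgeR. The S phase genes with which DNMT1 and UHRF1 are known to vary were on average slightly higher in si-AC010789.1. Their mean log2 CPM, taken over 18 genes relative to each gene's own mean, ranged from -0.030 to -0.026 under siRNA-NC and from 0.021 to 0.042 under si-AC010789.1, and their part in the values of both genes was not tested.

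DNMT3B (chr20:32762385-32809356, plus strand), a de novo methyltransferase, was measured at 13.6, 12.4 and 13.9 CPM under siRNA-NC and at 18.3, 17.6 and 17.6 CPM under si-AC010789.1. The groups were well apart, with means of 13.3 ± 0.771 and 17.8 ± 0.421 (n = 3 per group, SD). The log2 fold change of 0.42 (SE 0.0875, 95% interval 0.21 to 0.63) had an unadjusted p of 0.00231 and an adjusted p of 0.0902 in edgeR, so it did not pass over all genes. Across the 14 alternatives its adjusted p by edgeR or DESeq2 stayed between 0.0781 and 0.230. The other de novo enzyme, DNMT3A (chr2:25227855-25342590, minus strand), was measured at 28.3, 27.9 and 33.9 CPM under siRNA-NC and at 35.2, 33.1 and 28.6 CPM under si-AC010789.1. These ranges overlapped, and the log2 fold change was 0.11 (SE 0.119, 95% interval -0.18 to 0.39, edgeR adjusted p = 0.705). The ratio of DNMT3B to DNMT3A in TPM, which divides the counts by transcript length before scaling to 1000000, was 0.794 ± 0.0707 under siRNA-NC and 1.04 ± 0.174 under si-AC010789.1 (n = 3 per group, SD), and the 2 ranges overlapped.

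Of the erasers, TET3 (chr2:73986404-74108176, plus strand) was measured at 93.4, 93.9 and 104 CPM under siRNA-NC and at 124, 107 and 138 CPM under si-AC010789.1. Every silenced library lay above every control, the nearest pair being 104 and 107 CPM. The log2 fold change was 0.34 (SE 0.0990, 95% interval 0.11 to 0.58), with an unadjusted p of 0.0115 and an adjusted p of 0.163 in edgeR. TET2 (chr4:105145875-105279816, plus strand) had means of 45.6 ± 4.70 and 45.6 ± 1.35 CPM (n = 3 per group, SD) and a log2 fold change of 0.00066, whose 95% interval of -0.22 to 0.22 limits a difference in either direction. TET1 (chr10:68560656-68694482, plus strand) was close to the limit of detection. It had 17, 13 and 13 counts under siRNA-NC and 24, 13 and 15 counts under si-AC010789.1, where 3 counts correspond to between 0.223 and 0.266 CPM. With a log2 fold change of 0.33 and a 95% interval of -0.56 to 1.22, no difference was detectable at this depth (edgeR adjusted p = 0.706). Such floors cover counting error only. The reader MBD2 (chr18:54151601-54224788, minus strand) was measured at 150, 138 and 131 CPM under siRNA-NC and at 131, 143 and 136 CPM under si-AC010789.1, with overlapping groups and a log2 fold change of -0.032 (SE 0.0659, 95% interval -0.19 to 0.13, edgeR adjusted p = 0.847).

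TDG (chr12:103965804-103988874, plus strand) had the largest absolute log2 fold change of the 9 genes. It was measured at 47.4, 80.4 and 72.8 CPM under siRNA-NC and at 35.5, 34.6 and 39.1 CPM under si-AC010789.1. The silenced libraries lay close together and below all controls, and the first control was the lowest of the 3 controls. The means were 66.9 ± 17.3 and 36.4 ± 2.38 CPM (n = 3 per group, SD). The log2 fold change was -0.88 (SE 0.194, 95% interval -1.34 to -0.41), with an unadjusted p of 0.00321 and an adjusted p of 0.101 in edgeR. The adjusted p was 0.00139 in DESeq2 and 0.0431 in edgeR without the first control, where the log2 fold change was -1.07, and over all 14 alternatives it ranged from 0.00139 to 0.783. The upper end came from edgeR with the average transcript length of each gene as an offset, which gave a log2 fold change of -0.091 and an unadjusted p of 0.481 and called 0.109% of genes. Protein-coding transcripts alone gave -1.64 with an adjusted p of 0.144 in edgeR, which then called 0.462% of genes. Weighted by their counts per nt, the TDG transcripts averaged 1903, 2438 and 2537 nt under siRNA-NC and 1295, 1346 and 1367 nt under si-AC010789.1. Expressed per length, TDG was at 48.4, 64.0 and 54.8 TPM under siRNA-NC and at 52.9, 49.9 and 55.3 TPM under si-AC010789.1, and these ranges overlapped. The lower count of TDG was thus found per gene and not per unit of transcript length, whereas DNMT3B and TET3 remained higher in all silenced libraries on the TPM scale. TPM and the length offset both rest on how reads were divided between the transcripts of a gene, which is not given in the sources used here.

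**Figure D2:**
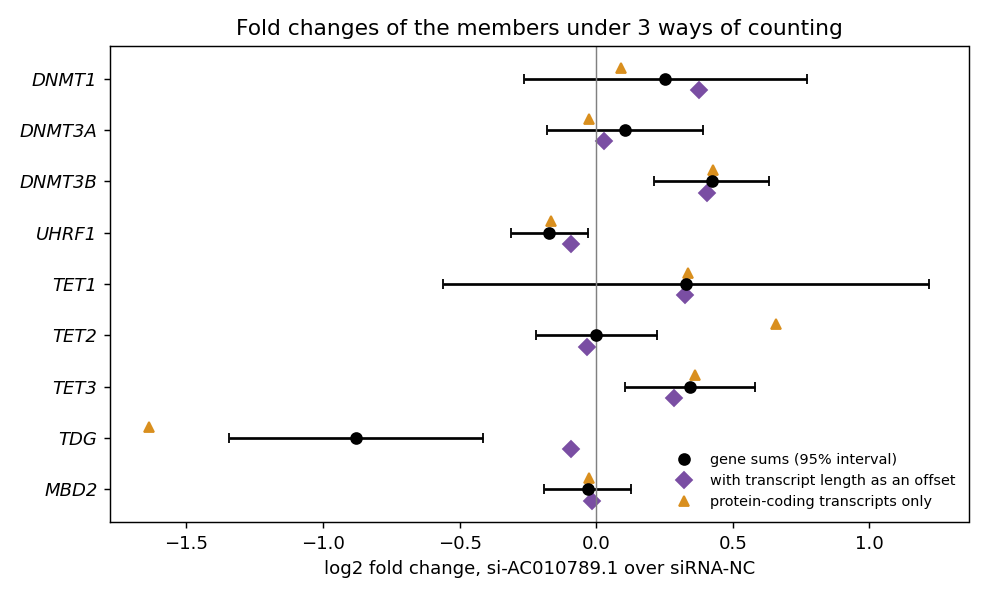
Log2 fold change of si-AC010789.1 over siRNA-NC for each gene, as gene sums with the 95% interval of the edgeR fit (circles), with the average transcript length as an offset (diamonds) and with protein-coding transcripts only (triangles). The 3 values for TDG are -0.88, -0.091 and -1.64, a wider spread than for any other gene, and those for DNMT3B lie between 0.41 and 0.43.

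The order of the genes by mean TPM was similar in both groups but not the same. In siRNA-NC the mean level was 92.5 TPM for DNMT1, 71.5 for UHRF1, 55.7 for TDG, 54.1 for MBD2, 18.5 for TET3, 11.2 for TET2, 10.5 for DNMT3A, 8.33 for DNMT3B and 0.240 for TET1. Maintenance genes therefore stood above the de novo methyltransferases, and TET3 was the most abundant TET. UHRF1 exceeded TDG, MBD2 exceeded TET3, TET3 exceeded TET2, and DNMT3B exceeded TET1 in all 6 libraries. The remaining neighbours changed places between libraries: DNMT1 exceeded UHRF1 in 5 of 6, TDG exceeded MBD2 in 4, TET2 exceeded DNMT3A in 3 and DNMT3A exceeded DNMT3B in 4.

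The transcripts behind the TDG sum differed between the groups. TDG-202, a protein-coding transcript of 3251 nt, had 295, 869 and 814 counts under siRNA-NC and 16, 38 and 43 counts under si-AC010789.1. TDG-209, a protein-coding transcript of 1387 nt, had 57, 11 and 25 counts under siRNA-NC and 129, 126 and 246 counts under si-AC010789.1. Both comparisons were free of overlap, in opposite directions. TDG-209 lacks exon 2 of TDG-202 (chr12:103976918-103977060, 143 nt), ends in a last exon of 247 nt in place of 1927 nt, and has 801 nt of annotated coding sequence in place of 1230 nt. The 3 exon junctions below distinguish the transcripts; each shows 12 bases on either side, read 5′ to 3′ from the GENCODE v29 transcripts, with the bases of exon 2 in capitals.
TDG-202, exon 1 to exon 2: gaacgcgggcagCTATTCCCTTCA
TDG-202, exon 2 to exon 3: AACCAGTGCAAGaggctccaaaag
TDG-209, exon 1 to its next exon: gaacgcgggcagaggctccaaaag

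In CPM, TDG-202 averaged 51.2 ± 22 under siRNA-NC and 2.62 ± 1.09 under si-AC010789.1 (n = 3 per group, SD). The log2 fold change was -4.28 (SE 0.561, unadjusted p = 0.000381, edgeR adjusted p = 0.163 over 44319 transcripts), and DESeq2 gave an adjusted p of 1.64e-10; the range over 12 alternatives ran from that value to 0.947. TDG-209 had a log2 fold change of 2.41 (SE 0.731, unadjusted p = 0.0185, edgeR adjusted p = 0.758). The retained-intron transcript TDG-207 had 159, 119 and 53 counts under siRNA-NC and 192, 214 and 132 under si-AC010789.1, with overlap. The 8 TDG transcripts other than TDG-202 summed to 240, 199 and 157 counts under siRNA-NC and to 391, 395 and 440 under si-AC010789.1, so that the rest of the gene was higher in every silenced library while TDG-202 was lower. The share of TDG-202 in the TDG counts was 55.1%, 81.4% and 83.8% under siRNA-NC and 3.93%, 8.78% and 8.90% under si-AC010789.1, a difference of -66.2 percentage points with p = 0.1 in a two-sided exact permutation test, the smallest value that 3 against 3 allows. Among 13750 tested genes, the share of the leading transcript was free of overlap in 9.08%, and free of overlap with a difference at least as large as that of TDG in 0.153%, 21 genes. As a description chosen after its values were seen, counts assigned to transcripts with exon 2 made up 84.1%, 96.9% and 96.8% of those assigned to transcripts with or skipping it in siRNA-NC, and 39.3%, 41.5% and 28.0% under si-AC010789.1. Both sets together held 372, 938 and 907 of the 535, 1068 and 971 TDG counts under siRNA-NC. Under si-AC010789.1 they held 214, 217 and 347 of 407, 433 and 483, and TDG-207 fell in neither set. The retained-intron transcript TDG-208 gave 16, 38 and 62 of the 313, 909 and 878 counts with exon 2 under siRNA-NC. Under si-AC010789.1 it gave 50, 47 and 50 of 84, 90 and 97. The processed pseudogene TDGP1, a near copy elsewhere on chromosome 12 that could share reads with TDG, had 86, 78 and 98 counts under siRNA-NC and 70, 76 and 105 under si-AC010789.1, without separation of the groups.

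**Figure D3:**
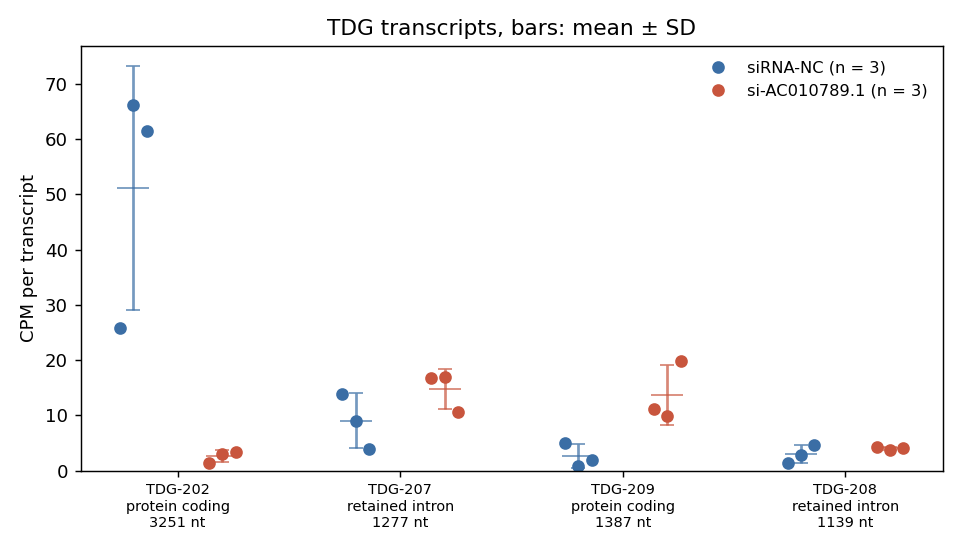
CPM of the 4 most abundant TDG transcripts in the 6 libraries, with points for single libraries and bars for the mean ± SD of 3 replicates. TDG-202 has means of 51.2 CPM for siRNA-NC and 2.62 CPM for si-AC010789.1, and the si-AC010789.1 points of TDG-209 lie wholly above its siRNA-NC points.

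Over the 9 genes, 65 transcripts had counts and 28 passed the filter and were tested. The filter needs a minimum count in enough libraries and left out, among others, TET2-201 and DNMT3B-203, which had high counts in few libraries. Of the 28 tested transcripts, 16 were higher and 12 lower in si-AC010789.1. None passed an adjusted p of 0.05 in edgeR, against 0.0135% of all tested transcripts, and 5 had an unadjusted p under 0.05, against 5.73%: TDG-202, TDG-209, UHRF1-201, DNMT1-201 and TET3-202. In DESeq2, of the 28, only TDG-202 had an adjusted p under 0.05, against 1.52% of tested transcripts. The groups did not overlap for 8 of the 28, against 14.0% of tested transcripts. Transcripts of 1 gene share most of their exons, how shared reads were divided is not given in the sources used here, and the biological coefficient of variation was 0.698 for transcripts beside 0.170 for genes, so counts of single transcripts are uncertain.

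Several genes changed their leading transcript from library to library within a group. For DNMT1, DNMT1-202 had 1497, 783 and 734 counts under siRNA-NC and 841, 632 and 750 under si-AC010789.1. DNMT1-201, which lacks exon 5 of DNMT1-202 (48 nt), had 401, 446 and 351 counts under siRNA-NC and 835, 468 and 692 under si-AC010789.1, without overlap (log2 fold change 0.79, SE 0.283, unadjusted p = 0.0340, edgeR adjusted p = 0.824). DNMT1-227, annotated as a target of nonsense-mediated decay (NMD), had 134, 115 and 1508 counts under siRNA-NC and 495, 1083 and 919 under si-AC010789.1, so that the third control was the highest of the 6 libraries. It begins exon 4 at a later acceptor, without the first 40 nt (chr19:10180530-10180569), and its reading frame is annotated at 267 nt instead of 4896 nt. The junctions of exons 3 and 4 are shown because these 40 nt set apart 2 transcripts that together took most of the DNMT1 counts in all 6 libraries; capitals mark the first bases of the stretch that DNMT1-227 lacks.
DNMT1-202, exon 3 to exon 4: gaattatccgagGAGGGCTACCTG
DNMT1-227, exon 3 to exon 4: gaattatccgagatttgtccttgg

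The 4 DNMT3B transcripts with counts were all protein coding, and their composition varied widely within both groups. DNMT3B-205 had 82, 19 and 100 counts under siRNA-NC and 24, 146 and 156 under si-AC010789.1. DNMT3B-202, the longest form, had 60, 4 and 68 counts under siRNA-NC and 2, 74 and 47 under si-AC010789.1. DNMT3B-203 had counts in 1 library of each group, 87 in the second control and 148 in the first silenced library, which were the libraries where DNMT3B-202 and DNMT3B-205 were lowest. The gene sum, at 154 to 185 and 210 to 220 counts, did not show this variation. DNMT3B-203, DNMT3B-205 and DNMT3B-206 skip exons 21 and 22 of DNMT3B-202 (chr20:32805338-32805407 and chr20:32806209-32806327, 70 and 119 nt), whose junctions are shown with the bases of these exons in capitals because they separate the full-length form from the other 3.
DNMT3B-202, exon 20 to exon 21: cgggatgaacagGCCCGTGATAGC
DNMT3B-202, exon 22 to exon 23: TGAGCTCGAAAGgatctttggctt
DNMT3B-203, exon 19 to its next exon: cgggatgaacaggatctttggctt

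The share of DNMT3B counts in the form with exons 21 and 22 was 39.0%, 2.42% and 36.8% under siRNA-NC and 0.952%, 33.6% and 21.6% under si-AC010789.1, with overlap. DNMT3A-201, the longest DNMT3A transcript, carried 74.4%, 74.3% and 69.9% of the DNMT3A counts under siRNA-NC and 78.5%, 81.2% and 75.7% under si-AC010789.1, a separation with p = 0.1 in the two-sided exact permutation test. DNMT3A-202 had 66, 72 and 111 counts under siRNA-NC and 11, 10 and 55 under si-AC010789.1 (log2 fold change -1.66, unadjusted p = 0.0733, edgeR adjusted p = 0.897). DNMT3A-204, an NMD transcript with an additional exon 20 (chr2:25239315-25239513, 199 nt), was named after its values were seen. It had 1, 1 and 5 counts under siRNA-NC and 54, 51 and 9 counts under si-AC010789.1. Too few libraries reached the minimum count of the filter, so it was not tested. The protein-coding share of DNMT3A was 96.2%, 95.9% and 95.1% under siRNA-NC and 82.7%, 84.8% and 94.1% under si-AC010789.1. This share did not overlap between the groups for 2 of the 9 genes, DNMT3A and TDG, against 7.69% of tested genes, and the share of the leading transcript for the same 2, against 9.08%.

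**Figure D4:**
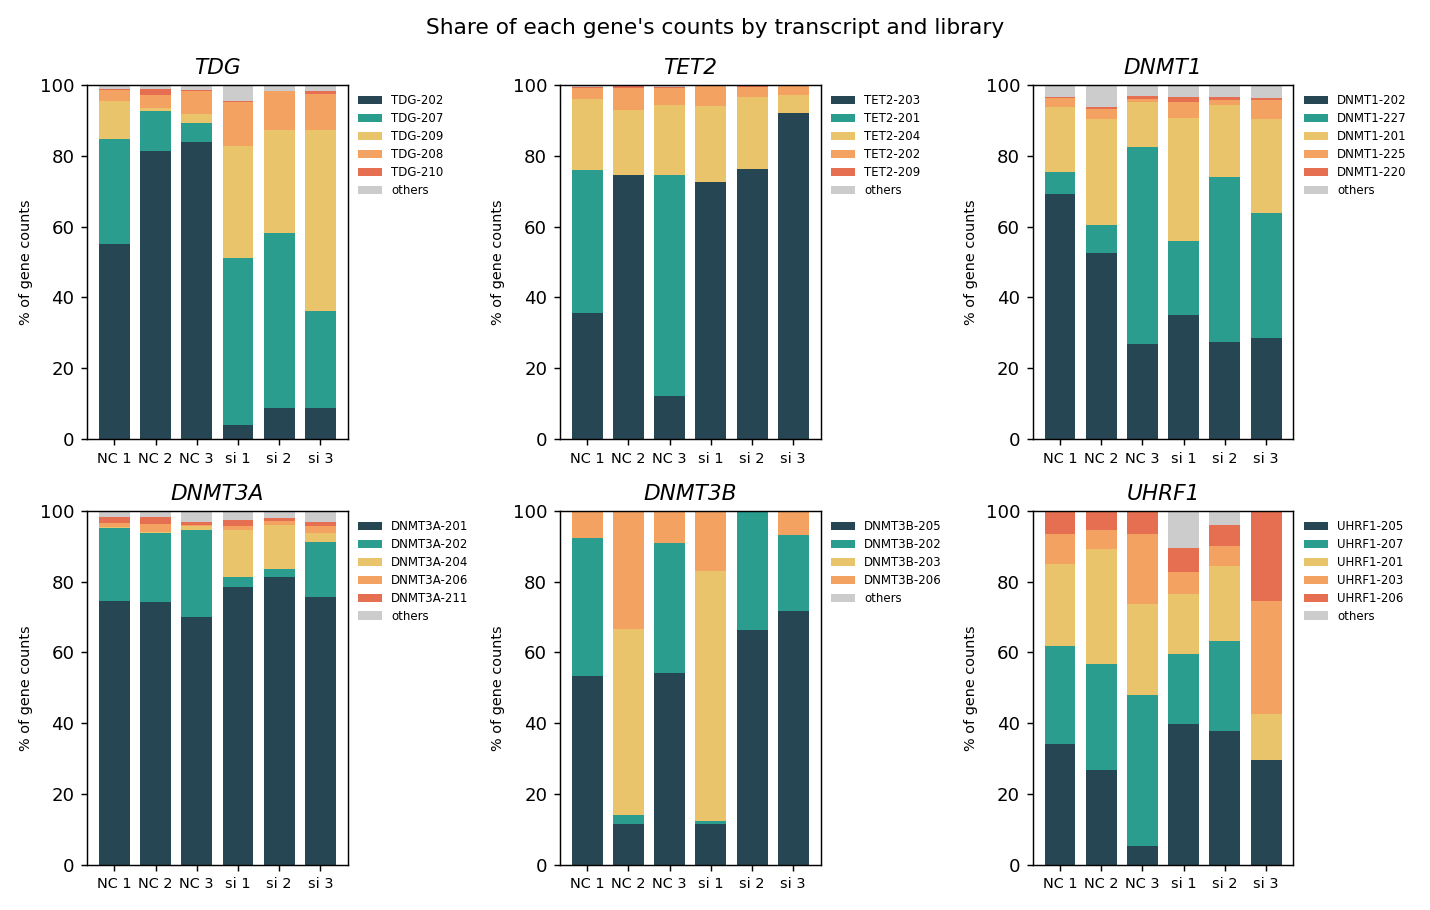
Share of each gene's counts (percent) by transcript in the 6 libraries for 6 of the genes, with the 5 most abundant transcripts in colour and the others in grey. TDG-202 takes from 55.1% to 83.8% of the TDG bar in siRNA-NC and at most 8.90% under si-AC010789.1, while the bars of DNMT1, DNMT3B, TET2 and UHRF1 differ between replicates of 1 group.

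The 6 UHRF1 transcripts were all protein coding and differed mainly in their first exons and 3′ ends. UHRF1-201, with the most upstream start, had 367, 635 and 444 counts under siRNA-NC and 239, 332 and 200 under si-AC010789.1, without overlap (log2 fold change -0.85, SE 0.270, unadjusted p = 0.0219, edgeR adjusted p = 0.793). UHRF1-207 had 442, 589 and 743 counts under siRNA-NC and 275, 397 and 0 under si-AC010789.1, and UHRF1-205 had 541, 524 and 92 under siRNA-NC and 555, 592 and 457 under si-AC010789.1. UHRF1-203 was highest in the third library of either group, at 342 and 492 counts, and ranged from 84 to 135 in the other 4. Grouped by start after the values were seen, UHRF1-201 carried 27.0% ± 4.82 of the UHRF1 counts under siRNA-NC and 17.1% ± 4.11 under si-AC010789.1 (n = 3 per group, SD). The other start groups overlapped. UHRF1-205 and UHRF1-207 together averaged 55.6% under siRNA-NC and 50.7% under si-AC010789.1. UHRF1-203, UHRF1-204 and UHRF1-206 together averaged 17.4% and 32.2%, with 57.4% in the third silenced library.

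For TET2, TET2-203 had 198, 399 and 76 counts under siRNA-NC and 371, 430 and 536 under si-AC010789.1, with separate CPM values (log2 fold change 1.03, SE 0.590, edgeR adjusted p = 0.932). TET2-201, an NMD transcript that skips exon 4 of TET2-203 (chr4:105241339-105241429, 91 nt), had 225, 0 and 395 counts under siRNA-NC and was listed at 0 in all 3 si-AC010789.1 libraries. Since the second control was also at 0, the groups were not separate, and no fold or test is given. TET2-204 had 111, 98 and 125 counts under siRNA-NC and 111, 114 and 30 under si-AC010789.1. TET2-206, a retained-intron transcript, had 1 or 2 counts per library. Without TET2-201 and TET2-206, the protein-coding TET2 sum had a log2 fold change of 0.66 (edgeR adjusted p = 0.363) beside 0.00066 for the whole gene. The junctions of exon 4 are shown, with its bases in capitals, because the TET2 sum was level while the split between these forms was not.
TET2-203, exon 3 to exon 4: gcagatgtgtagAGCAAATTATTG
TET2-203, exon 4 to exon 5: CATGGAAGAAAGgtttggacagaa
TET2-201, exon 3 to its next exon: gcagatgtgtaggtttggacagaa

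TET3, MBD2 and TET1 each rested on 1 transcript. TET3-202 held from 97.8% to 99.3% of the TET3 counts and gave the same log2 fold change as the gene, 0.34 (edgeR adjusted p = 0.841 over transcripts). MBD2-201 held from 98.7% to 99.7% of the MBD2 counts, and TET1-201 was the only TET1 transcript annotated. Of the genes that overlap the members, S1PR2, within DNMT1 on the same strand, was the only one with counts in the table, at 37 in the second si-AC010789.1 library and 0 in the other 5.

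The genes that work with the members were described in 8 lists. Of the MBD2/MBD3 NuRD complex, 14 genes were tested, 12 were higher and 2 lower, and 1 passed in edgeR: MTA2, a scaffold subunit of the complex, fell from 167, 174 and 186 CPM under siRNA-NC to 128, 121 and 125 CPM under si-AC010789.1 (log2 fold change -0.49, SE 0.0565, edgeR adjusted p = 0.0223). Its adjusted p ranged from 3.12e-07 in DESeq2 to 0.149 with edgeR over 14 alternatives and missed the threshold in 8 of them, among them the removal of any 1 library, with log2 fold changes between -0.53 and -0.45 over these removals. The related subunit MTA1 was at 120, 119 and 124 CPM under siRNA-NC and 144, 140 and 149 CPM under si-AC010789.1 (log2 fold change 0.25, SE 0.0468, edgeR adjusted p = 0.0729, DESeq2 adjusted p = 0.0132, range 0.0132 to 0.375 over 14 alternatives) and was named after its values were seen. MBD3, the counterpart of MBD2 in NuRD, was at 45.5, 42.4 and 38.9 CPM under siRNA-NC and 54.5, 53.0 and 47.7 CPM under si-AC010789.1 (log2 fold change 0.29, SE 0.0895, edgeR adjusted p = 0.182). The groups did not overlap for 9 of the 14 genes, against 25.1% of tested genes, and 7 had an unadjusted p under 0.05, against 17.2%. MBD3 is also in the list of methyl-CpG readers, and HDAC1 and HDAC2 are also in that of methyltransferase partners. The median log2 fold change was 0.13.

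**Figure D5:**
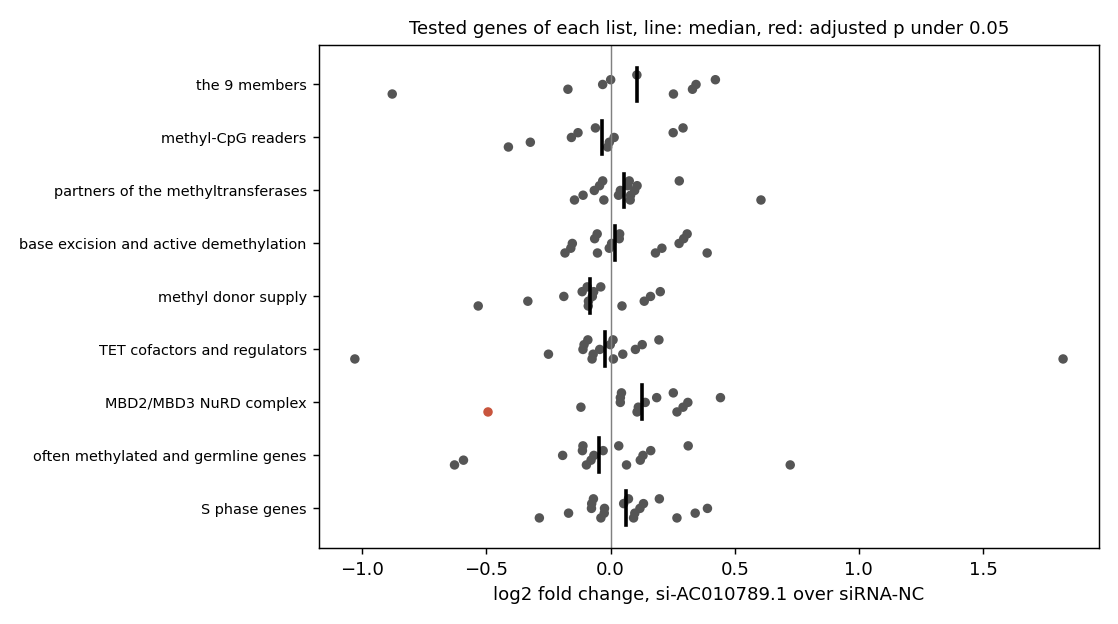
Log2 fold change of si-AC010789.1 over siRNA-NC for the tested genes of the 9 members and of 8 lists of related genes, with 1 point per gene, a line at the median and genes with an edgeR adjusted p under 0.05 in red. The single red point is MTA2 at -0.49, and the medians lie between -0.081 and 0.13.

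None of the other 7 lists held a gene that passed in edgeR. Of 10 methyl-CpG readers, 3 were higher and 7 lower, with a median log2 fold change of -0.036. Of 16 partners of the methyltransferases, 10 were higher and 6 lower. ZBTB24, a zinc finger protein needed for methylation of satellite repeats, was at 15.8, 19.1 and 16.9 CPM under siRNA-NC and 28.0, 29.8 and 21 CPM under si-AC010789.1 (log2 fold change 0.61, SE 0.153, edgeR adjusted p = 0.130), and PCNA, the replication clamp, had a log2 fold change of -0.15 (edgeR adjusted p = 0.164). In base excision and active demethylation, 9 of 16 genes were higher and 7 lower. GADD45A, a stress-induced gene linked to active demethylation, had a log2 fold change of 0.31 (edgeR adjusted p = 0.235).

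Of 14 genes of the methyl donor supply, 4 were higher and 10 lower. AHCYL1, a relative of the enzyme that removes S-adenosylhomocysteine, was at 160, 173 and 192 CPM under siRNA-NC and 121, 110 and 132 CPM under si-AC010789.1 (log2 fold change -0.53, SE 0.0940, edgeR adjusted p = 0.0658). The enzyme itself, AHCY, had a log2 fold change of 0.046 (SE 0.0491, edgeR adjusted p = 0.686). Of 16 TET cofactors and regulators, 7 were higher and 9 lower. CXXC4, a CXXC domain protein that binds TET2, was low, at 0.354, 0.829 and 0.300 CPM under siRNA-NC and 1.92, 1.84 and 1.62 CPM under si-AC010789.1 (log2 fold change 1.82, SE 0.405, edgeR adjusted p = 0.103).

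Of 35 listed genes that are often methylated in colorectal cancer cells or belong to the germline, 21 were in the table and 16 were tested, 7 higher and 9 lower, with a median log2 fold change of -0.048. SOX17 was at 3.90, 3.99 and 4.72 CPM under siRNA-NC and 3.32, 2.55 and 2.51 CPM under si-AC010789.1 (log2 fold change -0.59, edgeR adjusted p = 0.197). HIC1, also low, was at 2.21, 2.79 and 2.62 CPM under siRNA-NC and 3.23, 5.59 and 3.80 CPM under si-AC010789.1 (log2 fold change 0.72, edgeR adjusted p = 0.228). Other listed genes were well expressed under siRNA-NC, such as VIM and SEPT9 with means of 831 and 228 CPM. The list thus does not show which genes are silenced in these cells. Methylation itself was not measured in these samples. Of 18 S phase genes, 10 were higher and 8 lower, and the replication factors GINS2 (log2 fold change 0.39, edgeR adjusted p = 0.0863) and GINS1 (0.34, edgeR adjusted p = 0.101) had the smallest unadjusted p. The groups did not overlap for 9 of the 18, against 25.1% of tested genes. In edgeR, 4 of them had an unadjusted p under 0.05, against 17.2%. In DESeq2, which called 3.84% of all tested genes, the listed genes with an adjusted p under 0.05 included ZBTB24, AHCYL1, CXXC5, MTA1, MTA2, GINS1 and GINS2, and each of them except MTA2 was above 0.05 in edgeR. CXXC5, named after its values were seen, was at 94.3, 33.5 and 86.8 CPM under siRNA-NC and 32.1, 33.2 and 39.7 CPM under si-AC010789.1, with overlap through the second control (log2 fold change -1.03, edgeR adjusted p = 0.234, DESeq2 adjusted p = 0.0455). Without that library the log2 fold change was -1.37 with an edgeR adjusted p of 0.0431, and over 14 alternatives the adjusted p ranged from this value to 0.427.

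Markers of cell types were summed as a description, which does not settle the labelled cell type. Only 3 of the 10 markers of colorectal epithelium passed the filter. Of 10 markers of colorectal epithelium, 5 had counts and summed to between 984 and 1228 CPM under siRNA-NC and between 800 and 1040 CPM under si-AC010789.1, while CDX1, CDX2, KRT19, KRT20 and VIL1 had no counts listed. Markers of leucocytes summed to at most 1.60 CPM, of endothelium to at most 2.51 CPM, and of fibroblasts to between 43.2 and 52.0 CPM, with overlap between the groups in each case, and their part in the results was not tested. The level of AC010789.1 was not analysed here.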

How the data were processed

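RNA of 6 HCT116 samples, 3 siRNA-NC and 3 si-AC010789.1, was measured by RNA-seq. In 1 table the authors deposited raw counts, as whole numbers for each Ensembl transcript and library. The submitters' processing notes list CASAVA 1.8 and TopHat2 2.0.6 and the builds mm10 and GRCh38, with no role given. The counting program, its annotation and its treatment of shared reads are not given in the sources used here. Samples were grouped by their titles, which call the controls only control HCT116 cells. That these received a negative control siRNA is taken from the study.

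Of 98886 transcripts, 98782 matched GENCODE v29 and were summed to 18750 genes, and 104 stayed out of the gene sums. Genes and transcripts were tested with edgeR 4.0.16 in R 4.3.3 (TMM, filterByExpr at 10 counts and a total of 15, quasi-likelihood test) and adjusted after Benjamini-Hochberg over all 13750 genes or 44319 transcripts. The study named Cuffdiff, which needs alignments. TPM was computed from annotated transcript lengths. Single values were compared by two-sided exact permutation tests, for which 3 against 3 cannot give a p under 0.1. Named were the 9 members, their transcripts with at least 10% of the gene's counts and, in each list, genes that passed or else the 2 with the smallest p. Some genes that this rule takes are not reported here. Members, lists and tests were chosen with earlier results of these data known.

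Alternatives were DESeq2 1.42.0, RLE and upper-quartile factors, no filter, a mean of at least 1 CPM, the replicate number as a block, and leaving out each library; for the shares of counts, only transcripts with at least 10 counts, and the transcript leading in siRNA-NC. Sums of protein-coding transcripts and a length offset were added after seeing the data. On simulated data for this comparison, 61% of genes changed by a log2 of 1 and 95% of those changed by 2 were called among 13617 tested, with 5 false among 161 calls, and 0% of transcripts at either size among 40660. Figures used Python 3.11.15 with pandas 2.3.3, numpy 2.4.6, scipy 1.17.1 and matplotlib 3.10.9.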

Additional observations from a re-analysis of the deposited data

How the results depend on the processing

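Of 125 log2 fold changes of the 9 members under the alternatives, 118 kept their direction and 7 reversed: DNMT3A with protein-coding transcripts only (-0.028), TET2 with the length offset (-0.033) and without a filter (-0.0062), and, on leaving out 1 library, TET1 (-0.025 to 0.56), TET2 (-0.082 to 0.060) and MBD2 (-0.079 to 0.024). The number of members called was 0 in edgeR, 1 in DESeq2 (TDG) and 0 to 1 on leaving out 1 library (TDG, without the first control); of their transcripts it was 0, 1 in DESeq2 (TDG-202) and 0 to 0. Over all genes 135 calls became 528 in DESeq2, 69 without a filter, 56 with protein-coding transcripts only, 15 with the length offset, and 12 (without the third silenced library) to 37 (without the first silenced library) on leaving out 1 library. With the replicate number as a block, edgeR called 0 genes, with 2163 at an unadjusted p under 0.05, and 0 members. Same-numbered libraries deviated together with r of 0.0896, 0.0028 and 0.00032, so the numbers were not taken as pairs, and only the first control correlated best with its own number. The protein-coding share was free of overlap for 2 members and for 2 to 4 on leaving out 1 library (4 without the third control), and the leading share for 2, for 3 with the transcript leading in siRNA-NC, and for 3 to 4 on leaving out 1 library (4 without the third control or the first silenced library). The cause of these shifts was not tested. With 3 libraries per group, the simulated transcript test made no call at a log2 of 1 or 2.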
